A study of Mus musculus with 12 samples.

Results

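The genes described here encode subunits of the NADPH oxidases and dual oxidases, the enzymes that make superoxide and hydrogen peroxide on purpose. They are 9 of the 21965 genes in the count table: Cybb, Cyba, Ncf1, Ncf4, Rac2, Nox4, Duox1, Duox2 and Duoxa1, matched by Ensembl identifier to GENCODE M21. All 9 passed the filter on low counts, as did 15046 genes in total. They were measured in gingival tissue of C57BL/6J wild-type (WT) mice and of mice labelled CybbKO, a Cybb knockout whose allele is not given in the sources used here. Mice of each genotype were either left naive or had a silk ligature tied around a molar, with tissue taken after 8 days, and all were under 12 weeks of age per the labels. Each of the 4 groups held 3 libraries, and the sample titles do not give the number of mice per library. The study used mice of both sexes. The WT mice were bought and the CybbKO mice came from another laboratory, and the sources used here do not state that they were littermates.

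Nox2 is the oxidase of phagocytes. Its membrane part is a pair of proteins, the electron-carrying subunit encoded by Cybb and the stabilising subunit encoded by Cyba, and it stays silent until cytosolic proteins, among them those encoded by Ncf1 and Ncf4, and a Rac GTPase join it. Nox4 shares the Cyba product, needs none of the cytosolic organisers and is known from fibroblasts and vessel walls. Dual oxidases sit at the surface of epithelia, release hydrogen peroxide for peroxidases and need a maturation factor to leave the endoplasmic reticulum, Duoxa1 for Duox1 and Duoxa2 for Duox2. Loss of Nox2 activity underlies chronic granulomatous disease, in which the gums and oral mucosa are often inflamed.

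Between 27958819 and 42613423 reads were counted on genes in each library. Values are CPM, the reads of a gene scaled to a common library total, after TMM scaling. Differences are log2 fold changes from edgeR's quasi-likelihood fit of the 12 libraries, and a gene is said to be called, to rise or to fall when its Benjamini-Hochberg adjusted p over the 15046 genes is under 0.05. In bulk tissue, a change in the number of cells of a type and a change in RNA per cell cannot be told apart. With 3 libraries against 3, the smallest exact two-sided permutation p for a single gene is 0.1, so groups are described below by whether they overlap. The labelled tissue was checked by 8 keratins of oral epithelium, which summed to between 71014 and 140127 CPM. The 4 listed genes of the Y chromosome summed to between 142 and 329 CPM over the libraries. Naive WT replicate 3 stood apart, with 29183 CPM from salivary gland markers against 63.0 to 5053 CPM in the other libraries. The single gene Muc5b gave 28942.5 CPM of that sum. Bpifa2, Dcpp1 and Aqp5 were also highest of naive WT there, Amy1 was lowest (4.19 against 6.64 and 6.61 CPM), and Smr3a and Prol1 were at 0. Ligated replicate 2 labelled CybbKO had 3867 CPM from fibroblast markers against 10396 and 9404 CPM in the other ligated libraries labelled CybbKO. The targeted gene went against its label, as described next, so that group is called the libraries labelled CybbKO. Whether the knockout allele gives a transcript or samples were exchanged between genotypes was not tested and cannot be told apart from counts per gene, and every difference between genotypes is by label.

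Cybb (X chromosome, 9435252 to 9487771, minus strand; all positions are GRCm38) had the widest range in fold of the 9 genes, and in the direction opposite to its label. It was at 5.60, 5.38 and 4.19 CPM in naive WT and at 8.41, 15.2 and 12.8 CPM in ligated WT tissue. Libraries labelled CybbKO had 41.6, 56.3 and 45.9 CPM when naive and 56.1, 51.1 and 63.7 CPM when ligated. Thus every library labelled CybbKO lay above every WT library, and the WT groups did not overlap each other, whereas the naive and ligated libraries labelled CybbKO did. The ligature raised Cybb 2.39-fold in WT (log2 fold change 1.26 with a standard error of 0.22, adjusted p = 0.0156). In the libraries labelled CybbKO the log2 fold change was 0.25 (95% interval -0.20 to 0.69, adjusted p = 0.466). The difference between these 2 responses was -1.01 on the log2 scale (95% interval -1.65 to -0.36, unadjusted p = 0.00523) and was not called once adjusted over all genes. The WT call was lost without ligated WT replicate 2 (log2 fold change 1.06, adjusted p = 0.0561), without ligated WT replicate 3 (1.22, adjusted p = 0.0517) without naive WT replicate 2 (1.30, adjusted p = 0.0758) and in a fit of the 6 WT libraries alone (1.26, adjusted p = 0.0552). Counts over the whole gene do not show which exons the reads came from, and the counts behind these values ran from 115 to 2790 reads.

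**Figure D1:**
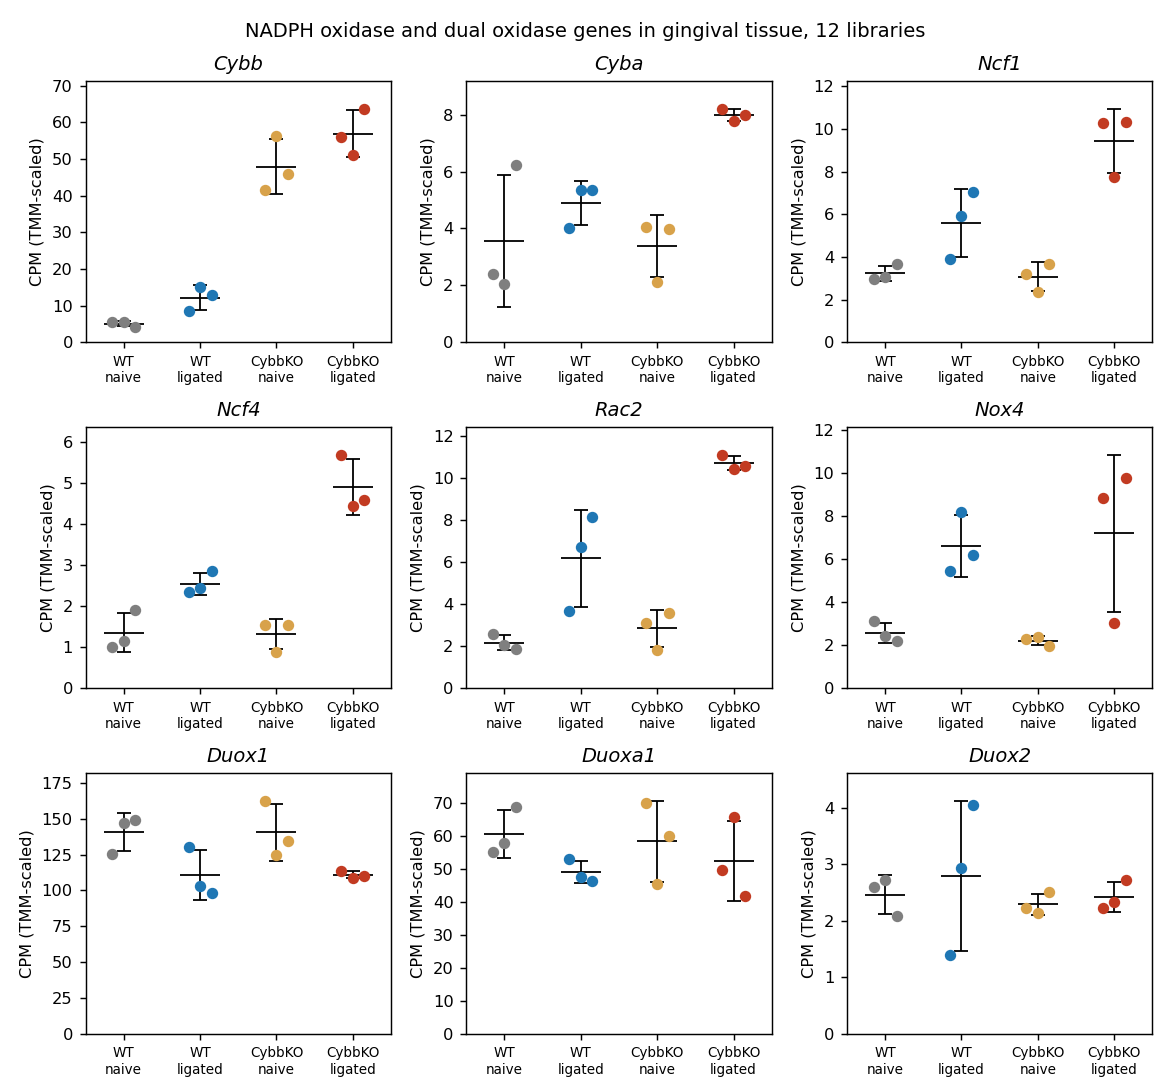
Each panel shows CPM after TMM scaling (y axis, from 0) for 1 gene in the 4 groups (x axis), with points for the 3 libraries of a group, a bar at their mean and whiskers of 1 SD. Cybb sits at 41.6 CPM or more in all 6 libraries labelled CybbKO and at 15.2 CPM or less in WT, while Duox1 stays between 98.0 and 163 CPM throughout.

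Of the genes whose transcript rose with the ligature in any contrast, 4 have an entry in the RefSeq promoter windows (GRCm38.p6, 250 bases before to 50 after the annotated start), which are shown 5′ to 3′ on the gene's own strand so that their start regions can be compared. The letters GAGGAA, a core bound by ETS factors such as PU.1, were searched on both strands, and a match is in capitals (it reads TTCCTC where it lies on the other strand).
Cybb: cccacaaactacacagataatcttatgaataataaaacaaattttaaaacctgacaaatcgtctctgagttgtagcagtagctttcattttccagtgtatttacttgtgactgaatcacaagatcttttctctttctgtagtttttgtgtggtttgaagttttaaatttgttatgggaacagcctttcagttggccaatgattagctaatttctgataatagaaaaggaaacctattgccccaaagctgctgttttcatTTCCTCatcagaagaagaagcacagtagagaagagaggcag
Cyba: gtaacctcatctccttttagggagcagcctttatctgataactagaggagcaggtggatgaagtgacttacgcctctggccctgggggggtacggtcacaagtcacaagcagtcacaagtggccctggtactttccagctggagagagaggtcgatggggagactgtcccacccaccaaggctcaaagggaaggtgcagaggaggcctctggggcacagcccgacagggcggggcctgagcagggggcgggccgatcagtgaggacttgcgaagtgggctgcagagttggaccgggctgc
Ncf1: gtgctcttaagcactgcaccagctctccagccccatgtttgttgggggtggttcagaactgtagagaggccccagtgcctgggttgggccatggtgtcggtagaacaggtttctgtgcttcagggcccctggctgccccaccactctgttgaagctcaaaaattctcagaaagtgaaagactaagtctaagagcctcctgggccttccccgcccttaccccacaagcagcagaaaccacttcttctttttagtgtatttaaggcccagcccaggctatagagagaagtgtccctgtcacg
Nox4: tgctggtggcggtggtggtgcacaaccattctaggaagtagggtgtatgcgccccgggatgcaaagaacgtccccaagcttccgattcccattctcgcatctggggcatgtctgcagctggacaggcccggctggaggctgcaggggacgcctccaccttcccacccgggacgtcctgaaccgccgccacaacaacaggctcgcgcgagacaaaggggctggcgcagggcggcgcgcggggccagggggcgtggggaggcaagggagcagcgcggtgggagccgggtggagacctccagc
These windows lie at chrX:9469275-9469574 (minus strand), chr8:122432891-122433190 (minus), chr5:134229576-134229875 (minus) and chr7:87246399-87246698 (plus). The motif occurred in the Cybb window and not in the Cyba, Ncf1 or Nox4 windows. Over the 7 members with a window it occurred in 2, the other being Duoxa1, and over all 32851 windows it occurred in 28.3%. The windows also differed in base composition, from 35.3% G and C in Cybb to 68.3% in Nox4, around a median of 52.7% for all windows. The GENCODE model of Cybb begins upstream of the RefSeq start, at position 9487771, so this window shows the RefSeq start alone.

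The partners of Cybb in the Nox2 complex, Cyba, Ncf1, Ncf4 and Rac2, all rose with the ligature when the genotypes were averaged, with larger fold changes in the libraries labelled CybbKO than in WT, a difference that was not called for any of them. Rac2 (chromosome 15, 78559167 to 78572783, minus strand), the GTPase of haematopoietic cells that switches the oxidase on, was at 2.56, 2.06 and 1.86 CPM in naive WT and 3.66, 6.73 and 8.15 CPM in ligated WT tissue. Tissue labelled CybbKO had 3.12, 1.83 and 3.57 CPM when naive and 11.1, 10.5 and 10.6 CPM when ligated. Neither genotype had overlapping naive and ligated libraries, and the ligated libraries labelled CybbKO lay above all others. Rac2 rose 2.86-fold in WT (log2 fold change 1.51 with a standard error of 0.31, adjusted p = 0.0282) and 3.78-fold in the libraries labelled CybbKO (1.92, standard error 0.31, adjusted p = 0.00342). Its WT call was lost without naive WT replicate 1 (1.65) or 2 (1.48) or ligated WT replicate 2 (1.45) or 3 (1.26), and in a fit of the 6 WT libraries alone (1.52, adjusted p = 0.0673).

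Ncf4 (chromosome 15, 78244801 to 78262580, plus strand) encodes the cytosolic subunit that binds phosphoinositide lipids on the phagosome. It was at 1.01, 1.14 and 1.90 CPM in naive WT and 2.34, 2.43 and 2.85 CPM in ligated WT tissue. Tissue labelled CybbKO went from 1.53, 0.888 and 1.53 CPM to 5.69, 4.44 and 4.59 CPM. The groups did not overlap in either genotype. The rise was 3.73-fold in the libraries labelled CybbKO (log2 fold change 1.90 with a standard error of 0.30, adjusted p = 0.00305), and in WT the log2 fold change of 0.92 (standard error 0.30) had an adjusted p of 0.112. This WT value depends on naive WT replicate 3, without which it was 1.24 and called (adjusted p = 0.0383).

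Ncf1 (chromosome 5, 134220053 to 134229625, minus strand), the organiser that carries the cytosolic subunits to the membrane, was at 2.98, 3.04 and 3.65 CPM in naive WT and 3.88, 5.91 and 7.03 CPM in ligated WT tissue. In the libraries labelled CybbKO it was at 3.20, 2.33 and 3.69 CPM when naive and 10.3, 7.73 and 10.3 CPM when ligated. Here too naive and ligated libraries did not overlap. Ncf1 rose 3.07-fold in the libraries labelled CybbKO (log2 fold change 1.62 with a standard error of 0.26, adjusted p = 0.00327), and in WT it differed by 0.80 on the log2 scale (standard error 0.26, adjusted p = 0.110). Ncf1 overlaps Gtf2ird2 on the opposite strand over 4303 bp, and Gtf2ird2 had 234 to 365 reads in each library.

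Cyba (chromosome 8, 122424776 to 122432930, minus strand) encodes the partner that both Cybb and Nox4 need in the membrane. It was at 2.41, 2.06 and 6.23 CPM in naive WT, the last in replicate 3, and at 4.01, 5.36 and 5.35 CPM in ligated WT tissue. Tissue labelled CybbKO had 4.04, 2.11 and 3.97 CPM when naive and 8.20, 7.78 and 8.01 CPM when ligated. The WT groups overlapped through naive replicate 3, and the groups labelled CybbKO did not overlap. No call was made in WT (log2 fold change 0.47, 95% interval -0.37 to 1.31) or in the libraries labelled CybbKO (1.25, 95% interval 0.40 to 2.09, adjusted p = 0.0545). Without naive WT replicate 3 the adjusted p in the libraries labelled CybbKO was 0.00846, and the WT log2 fold change was 1.13 (adjusted p = 0.0502). DESeq2 called Cyba in the libraries labelled CybbKO (adjusted p = 0.0130). So did edgeR with a replicate block (adjusted p = 0.0477), with scaling by library size alone (0.0435) and with only the libraries compared (0.0300). It was also called there by edgeR without naive WT replicate 1 (adjusted p = 0.0486) or 2 (0.0432). Averaged over genotypes Cyba was called (0.86, standard error 0.27, adjusted p = 0.0392), a call that was lost when any 1 of 9 libraries was left out, namely replicate 2 or 3 of ligated WT, 1 or 3 of the ligated libraries labelled CybbKO, 1 or 2 of naive WT and any of the naive libraries labelled CybbKO. Over these and the other single omissions its log2 fold change ran from 0.72 to 1.19. The annotation places the whole of Cyba (8155 bp) within Gm20388 on the opposite strand, which had 0 reads in every library.

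Nox4 (chromosome 7, 87246096 to 87398710, plus strand) makes hydrogen peroxide without a trigger, at a rate that follows its abundance. It was at 3.11, 2.40 and 2.19 CPM in naive WT and 5.43, 8.22 and 6.20 CPM in ligated WT tissue. Naive libraries labelled CybbKO had 2.28, 2.39 and 1.95 CPM and ligated ones 8.83, 3.02 and 9.77 CPM. No naive library reached the lowest ligated one in either genotype, but the second of the ligated replicates labelled CybbKO was far below the others and close to the naive range. Nox4 rose 3.26-fold in the libraries labelled CybbKO (log2 fold change 1.71 with a standard error of 0.37, adjusted p = 0.0127), and in WT the log2 fold change was 1.36 (standard error 0.37, adjusted p = 0.0691). Without ligated replicate 2 labelled CybbKO both were called, at 2.07 and 1.36 (adjusted p = 0.000329 and 0.00757). The call in the libraries labelled CybbKO was lost without replicate 1 (1.54) or 3 (1.42) of the ligated libraries labelled CybbKO or replicate 3 of the naive libraries labelled CybbKO (1.63). The summed fibroblast markers moved in the same libraries, from 1390 to 2917 CPM in the naive ones to 5001, 5916 and 8036 CPM in ligated WT. Ligated libraries labelled CybbKO had 10396, 3867 and 9404 CPM, with replicate 2 again the low one. The collagen genes Col1a1, Col1a2 and Col3a1 were the most abundant of the list in ligated tissue. Dcn, of the same list, was at 493, 538 and 625 CPM in naive and 420, 581 and 640 CPM in ligated WT. It overlapped between naive and ligated libraries in both genotypes and was called in neither, while the other genes were called in the libraries labelled CybbKO. Endothelial markers, of vessel walls, summed to 106 to 137 CPM in the naive libraries, 194, 223 and 298 CPM in ligated WT and 301, 214 and 305 CPM in ligated libraries labelled CybbKO, where replicate 2 was also the lowest. The part of either list in the Nox4 values was not tested.

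Duox1, the dual oxidase of stratified and airway epithelium, was the most abundant of the 9 genes. It was at 125, 147 and 150 CPM in naive WT, 131, 103 and 98.0 CPM in ligated WT, 163, 125 and 135 CPM in naive libraries labelled CybbKO and 114, 109 and 110 CPM in ligated libraries labelled CybbKO. The WT groups overlapped and the groups labelled CybbKO did not. Its log2 fold change with the ligature was -0.35 in WT (adjusted p = 0.187) and -0.34 in the libraries labelled CybbKO (adjusted p = 0.131), neither called. Averaged over genotypes Duox1 fell by 0.34 on the log2 scale (standard error 0.10, adjusted p = 0.0242), and this call was lost without any 1 of 6 libraries, replicates 2 and 3 of ligated WT, 1 and 3 of the ligated libraries labelled CybbKO, 2 of naive WT and 1 of the naive libraries labelled CybbKO, under scaling by library size alone (-0.25, adjusted p = 0.0614) and without naive WT replicate 3 and ligated replicate 2 labelled CybbKO together (-0.29, adjusted p = 0.0651). With single libraries left out the log2 fold change ran from -0.39 to -0.29. Keratin markers of oral epithelium were at 96746 to 140127 CPM in naive and 71014 to 120250 CPM in ligated libraries, and their part in the Duox1 values was not tested.

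Duoxa1, the maturation factor of Duox1, was at 55.2, 57.9 and 68.9 CPM in naive WT and 52.9, 47.7 and 46.4 CPM in ligated WT tissue. Naive libraries labelled CybbKO had 70.0, 45.5 and 59.9 CPM and ligated ones 49.6, 65.7 and 41.8 CPM. The WT groups did not overlap, with ligated tissue lower, whereas the libraries labelled CybbKO overlapped. No call was made (log2 fold change -0.31 in WT, 95% interval -0.72 to 0.10, and -0.16 in the libraries labelled CybbKO, 95% interval -0.57 to 0.25). The Duoxa1 value of 65.7 CPM came from ligated replicate 2 labelled CybbKO, which also had the highest keratin sum of the ligated libraries.

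Duox2, the dual oxidase that inflammation is known to induce in gut and airway epithelium, was scarce. It was at 2.59, 2.72 and 2.08 CPM in naive WT and 1.39, 2.93 and 4.05 CPM in ligated WT tissue. Naive libraries labelled CybbKO had 2.22, 2.14 and 2.50 CPM and ligated ones 2.22, 2.33 and 2.72 CPM. All groups overlapped, and the spread within ligated WT exceeded any difference between group means. The log2 fold change with the ligature was 0.18 in WT (95% interval -0.53 to 0.89) and 0.08 in the libraries labelled CybbKO (95% interval -0.63 to 0.79). Its maturation factor Duoxa2 had 3 to 40 reads per library and a log2 fold change of 0.46 averaged over genotypes (adjusted p = 0.486).

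These 4 genes lie side by side on chromosome 2, within 68726 bp. Duox2 (122279247 to 122298449, minus strand) and Duoxa2 (122298900 to 122302885, plus strand) start 451 bp apart and are read away from each other. Duoxa1 (122302191 to 122313730, minus) and Duox1 (122315672 to 122347972, plus) form the second such pair, with starts 1942 bp apart, and the ends of Duoxa2 and Duoxa1 overlap by 695 bp. The pairs differed in level: per kilobase of exon, Duox1 exceeded Duox2 by 31.1 to 120 times over the 12 libraries. Within the abundant pair, Duox1 exceeded Duoxa1 by 0.73 to 1.45 on the log2 CPM scale.

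**Figure D2:**
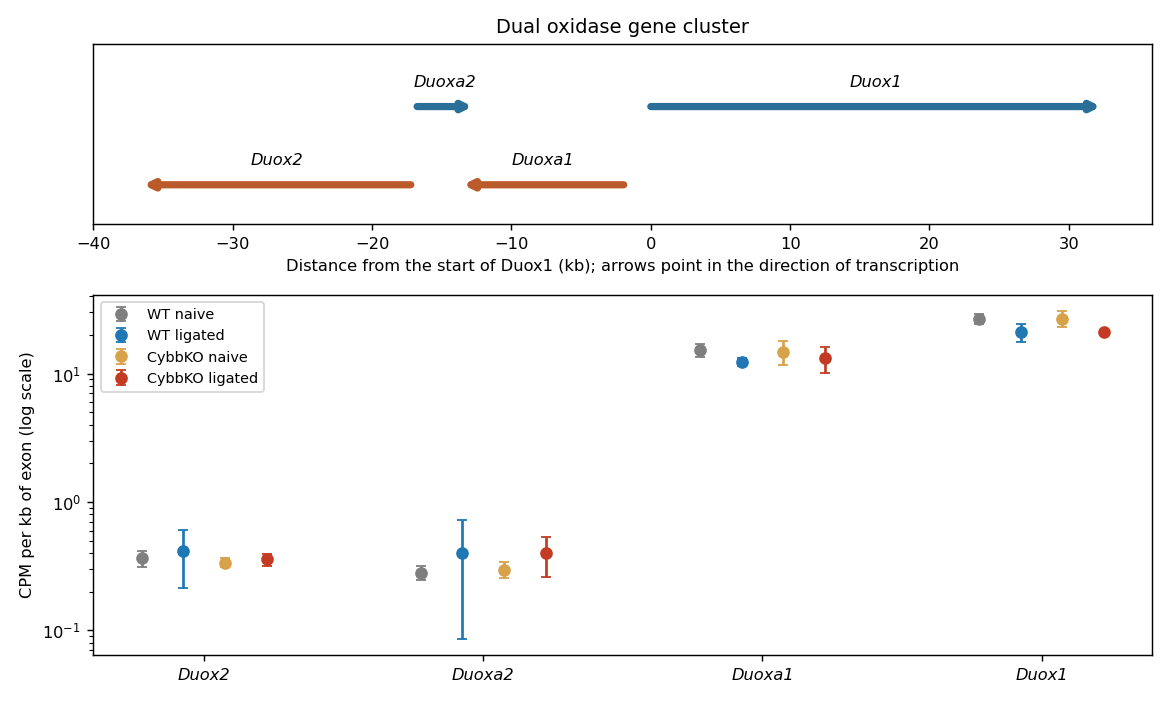
The upper panel maps the 4 dual oxidase genes by distance from the start of Duox1 in kilobases, with arrows in the direction of transcription, and the lower panel gives CPM per kilobase of exon on a log axis as the mean and SD of 3 libraries per group. Duox1 and Duoxa1 lie above 12 CPM per kilobase and Duox2 and Duoxa2 below 0.5 in the mean of every group.

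Per kilobase of exon, the scale on which genes can be set against each other, the order in naive WT tissue was Duox1 (26.7 ± 2.53 CPM per kb; SD, n = 3), Duoxa1 (15.3 ± 1.83), Cyba (3.43 ± 2.23), Ncf1 (0.880 ± 0.10), Cybb (0.871 ± 0.131), Rac2 (0.695 ± 0.116), Ncf4 (0.667 ± 0.238), Duox2 (0.364 ± 0.0501) and Nox4 (0.303 ± 0.0567). Ncf1 and Cybb, and Rac2 and Ncf4, were neighbours that differed by less than their spread. In ligated tissue labelled CybbKO the first 4 were Duox1 (21.1 ± 0.475), Duoxa1 (13.2 ± 3.06), Cybb (9.81 ± 1.09) and Cyba (7.70 ± 0.200), followed by Rac2 (3.46 ± 0.112), Ncf1 (2.58 ± 0.407), Ncf4 (2.43 ± 0.339), Nox4 (0.851 ± 0.431) and Duox2 (0.358 ± 0.0385). There Ncf1 and Ncf4 differed by less than their spread. Nox4 stood last in both naive groups and Duox2 in both ligated groups. Using the longest transcript in place of all exons set Duox2 last in all 4 groups and Duoxa1 above Duox1 in ligated tissue labelled CybbKO.

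Nox2 works as a complex of its subunits, so the level of Cybb was set against that of its partners within each library, as log2 CPM of Cybb minus the mean log2 CPM of Cyba, Ncf1, Ncf4 and Rac2. This balance was 1.41, 1.43 and 0.476 in naive WT and 1.29, 1.66 and 1.22 in ligated WT libraries. It was 3.86, 5.02 and 3.91 in naive and 2.71, 2.80 and 2.99 in ligated libraries labelled CybbKO. The WT groups overlapped, all libraries labelled CybbKO lay above all WT libraries, and the ligated ones among them lay below the naive ones. The low WT value was replicate 3. Among naive WT it had the lowest Cybb (4.19 CPM) and the highest Cyba (6.23 CPM), Ncf1 (3.65 CPM) and Ncf4 (1.90 CPM), with the lowest Rac2 (1.86 CPM). The mean was 1.10 ± 0.545 (SD, n = 3) in naive WT, 1.39 ± 0.232 in ligated WT, 4.26 ± 0.652 in naive libraries labelled CybbKO and 2.83 ± 0.144 in ligated libraries labelled CybbKO. Summed, the 4 partners had 8.29 to 13.6 CPM in naive WT, 7.16 to 12.8 CPM in naive libraries labelled CybbKO, 13.9 to 23.4 CPM in ligated WT and 30.4 to 35.3 CPM in ligated libraries labelled CybbKO. No test was run on these scores.

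**Figure D3:**
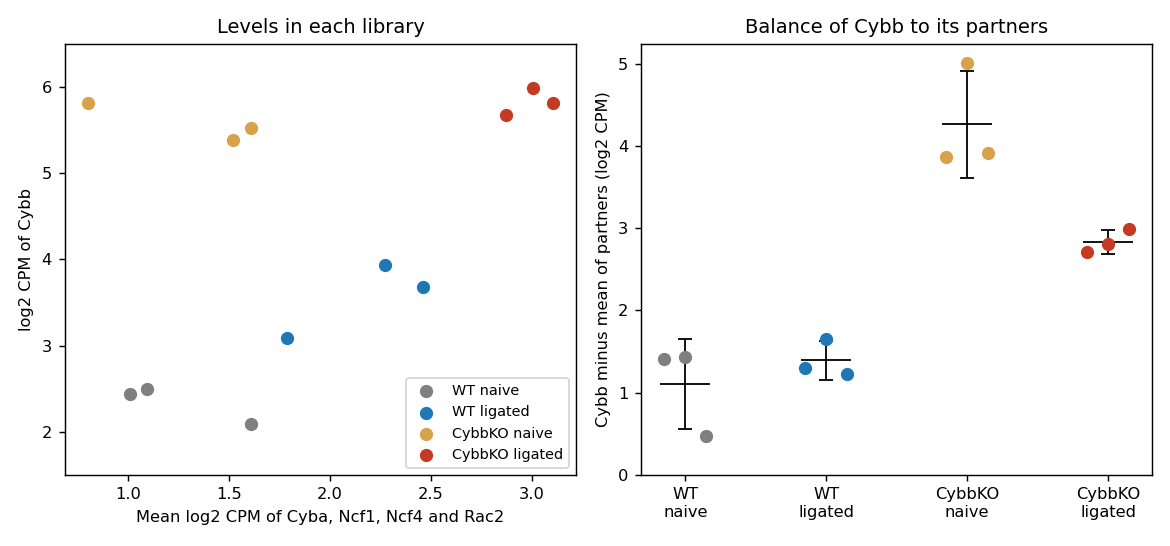
Left, log2 CPM of Cybb (y axis) against the mean log2 CPM of Cyba, Ncf1, Ncf4 and Rac2 (x axis), with 1 point per library. Right, the difference between these for the 3 libraries of each group, with the mean and 1 SD, which is 4.26 in naive and 2.83 in ligated libraries labelled CybbKO and 1.10 and 1.39 in WT.

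Across all 9 genes, the ligature called 2 higher in WT, Cybb and Rac2, where 2.31% of all tested genes were called higher. In the libraries labelled CybbKO it called 4 higher, Ncf1, Ncf4, Rac2 and Nox4, against 9.95% of all tested genes. Averaged over genotypes 6 were called higher, Cybb, Cyba, Ncf1, Ncf4, Rac2 and Nox4, against 14.7% of all genes, and 1 lower, Duox1, against 9.66%. The 9 genes were chosen with earlier results of these data known, so these shares are a description and not a test. The median log2 fold change of the 9 was 0.80 in WT and 1.25 in the libraries labelled CybbKO, beside -0.03 in both over all tested genes. All 3 ligated libraries lay above all 3 naive ones for 5 members in WT, where 13.3% of all genes did so, and for 5 in the libraries labelled CybbKO, where 18.5% did. DESeq2 called 5 members in WT, Cybb, Ncf1, Ncf4, Rac2 and Nox4, while over all genes it called 1374 against 481 in edgeR. Leaving out naive WT replicate 3 and ligated replicate 2 labelled CybbKO together, a choice made after seeing the data, called 5 in WT and 5 in the libraries labelled CybbKO, while over all genes the calls went from 481 to 1516 and from 1954 to 3711.

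Between genotypes, edgeR called 1 member, Cybb, higher in the libraries labelled CybbKO by 3.24 on the log2 scale in naive tissue (adjusted p = 0.000128), by 2.23 in ligated tissue (adjusted p = 0.00420) and by 2.74 averaged over treatments (adjusted p = 1.28e-05). It was also the only gene called in each of these contrasts, or 0.00665% of those tested. The call in ligated tissue was lost without ligated WT replicate 3 (adjusted p = 0.0540) and in a fit of the 6 ligated libraries alone (adjusted p = 0.233), with log2 fold changes of 2.27 and 2.21. In naive tissue its 4 partners overlapped between genotypes, with log2 fold changes from -0.08 for Cyba (95% interval -0.92 to 0.77) to 0.39 for Rac2 (95% interval -0.29 to 1.08). In ligated tissue the log2 fold changes were 0.70 for Cyba, 0.75 for Ncf1, 0.95 for Ncf4 and 0.80 for Rac2, with unadjusted p of 0.0882, 0.0115, 0.00657 and 0.0215 in edgeR and none called. With Cybb, these were the 5 members for which all 3 ligated libraries labelled CybbKO lay above all 3 ligated WT ones, where 5% of all genes did so. For Nox4 (0.12), Duox1 (0.01), Duox2 (-0.20) and Duoxa1 (0.10) the ligated libraries of the genotypes overlapped, and the widest 95% intervals ran from -0.65 to 0.90 for Nox4 and from -0.91 to 0.50 for Duox2.

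The difference between the genotypes in their response to the ligature was called for 0 of the 9 members and 0% of all genes in edgeR, and for 0 of the 9 in DESeq2. Cybb (-1.01), Ncf1 (0.82) and Ncf4 (0.98) were the members at an unadjusted p under 0.05 in edgeR, as were 342 of the 15046 genes. Without naive WT replicate 3 the Ncf4 value was 0.66, and Cyba went from 0.78 to 0.11.

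**Figure D4:**
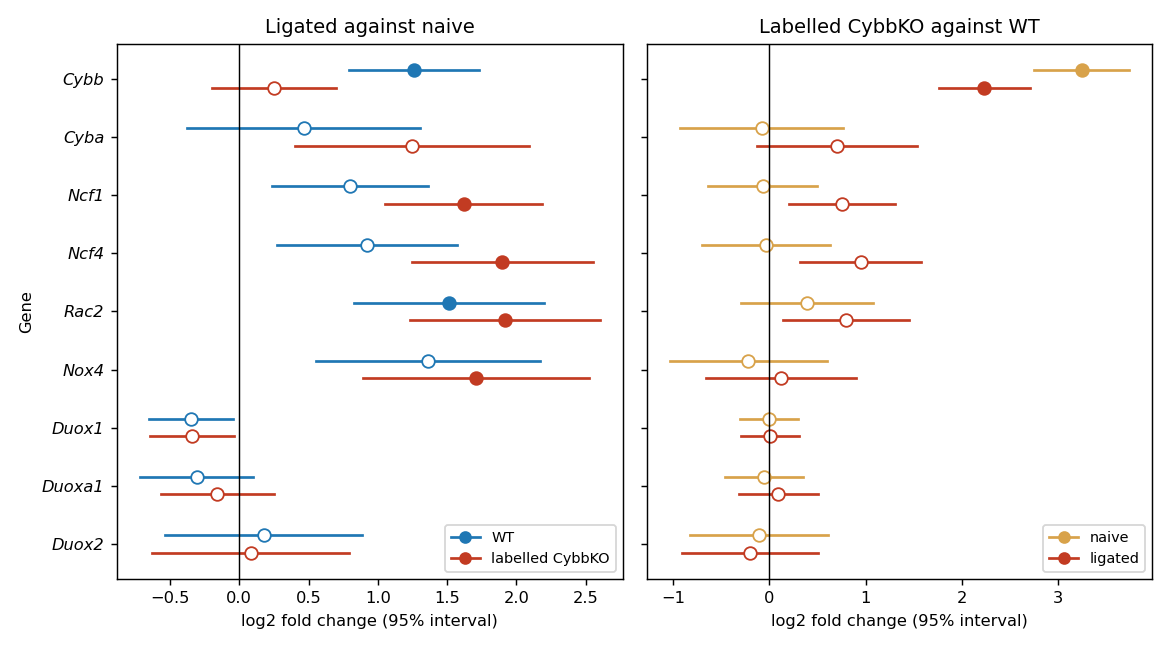
Log2 fold changes (x axis) of the 9 genes (y axis) from edgeR with 95% intervals, ligated against naive on the left and libraries labelled CybbKO against WT on the right; filled points have an adjusted p under 0.05. The cytosolic Nox2 partners and Nox4 lie right of 0 with the ligature, and between genotypes the filled points are those of Cybb, at 3.24 in naive and 2.23 in ligated tissue.

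The rest of the oxidase machinery was read from gene lists. Further genes of the NOX family and its partners were read beside the members. Rac1, the ubiquitous GTPase, was at 374 to 467 CPM, far above Rac2 at 1.83 to 11.1 CPM, with a log2 fold change of -0.09 with the ligature averaged over genotypes (standard error 0.08, adjusted p = 0.439). Cybc1, a chaperone of the Cybb protein, was at 22.4 to 39.2 CPM, with a log2 fold change of 0.19 averaged over genotypes (adjusted p = 0.241). Noxo1, an organiser that pairs with Nox1, was at 2.68, 3.83 and 8.64 CPM in naive WT and between 6.32 and 8.06 CPM in all ligated libraries. Its highest value was in naive WT replicate 3, and without that library the rise averaged over genotypes was called (0.92, adjusted p = 0.00151), where with it 0.61 was not (adjusted p = 0.0854). Its partners were near the floor, with 1 to 7 reads for Nox1 and 0 to 2 for Noxa1 per library, and Nox3 had 0 in all 12.

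Of 18 genes that act in oxidase activation, 5 rose with the ligature in WT and 13 in the libraries labelled CybbKO, where 2.31% and 9.95% of all tested genes rose, and none fell. The 5 were Itgb2, Fgr, Arhgdib, Prex1 and Lyn, with log2 fold changes of 1.07, 1.38, 0.69, 0.99 and 1.16. Itgb2 encodes the common chain of the leukocyte integrins, Fgr and Lyn are Src-family kinases of myeloid cells, Prex1 loads Rac with GTP and Arhgdib holds Rac proteins inactive. In the libraries labelled CybbKO the genes that joined these included Pik3cg (1.76), Itgam (1.40), Vav1 (1.67), Hvcn1 (1.10), C5ar1 (2.54), Fpr1 (2.71) and Fpr2 (2.90). The last 3 are receptors for complement and formylated peptides, with Fpr1 and Fpr2 in a family of similar genes between which reads could be split. Hvcn1 is the proton channel that balances the charge moved by Nox2. The 5 that were not called in either genotype were Rap1a, Vav3, Prkcb, Prkcd and Syk, of which Vav3 and Prkcd were the most abundant at 152 to 256 and 111 to 160 CPM. The median log2 fold change of the list was 0.84 in WT and 1.57 in the libraries labelled CybbKO, and DESeq2, with 1374 calls over all genes in WT, called 10 and 13. Between genotypes in ligated tissue 0 were called by edgeR or DESeq2, with 9 at an unadjusted p under 0.05, as were 503 of the 15046 genes, and a median of 0.53.

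Genes that consume the products of the oxidases went in both directions. Of 5 tested, 0 were called in WT in edgeR (1 at an unadjusted p under 0.05, and 1 called by DESeq2) and 4 in the libraries labelled CybbKO, 2 higher and 2 lower, where 9.95% of all tested genes were called higher and 3.04% lower. Sod1 and Cat, which dismutate superoxide and break down hydrogen peroxide, fell by 0.49 and 0.46 on the log2 scale (adjusted p = 0.0331 and 0.0339). Sod3, the extracellular superoxide dismutase, rose by 1.33 (adjusted p = 0.0259). Lpo, the lactoperoxidase that uses the hydrogen peroxide of dual oxidases, was at 0.664, 0.555 and 0.702 CPM in naive and 5.77, 3.29 and 31.8 CPM in ligated libraries labelled CybbKO, and went from 0.365, 0.569 and 0.948 CPM in naive to 2.36, 2.54 and 2.15 CPM in ligated WT tissue. Naive and ligated libraries did not overlap in either genotype, and the ligated libraries labelled CybbKO lay above all others, replicate 3 far above. Lpo rose by 4.41 (standard error 0.76, adjusted p = 0.00433), and by 2.82 without ligated replicate 3 labelled CybbKO, and in WT its log2 fold change of 1.92 was not called (adjusted p = 0.168). The mitochondrial Sod2 was called with both genotypes averaged, where it fell by 0.31 (adjusted p = 0.0213). The myeloid peroxidases Mpo and Epx did not pass the filter.

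Among 5 genes that surround Nox4, which is known as a target of TGF-beta signalling, the receptor gene Tgfbr2 rose in the libraries labelled CybbKO by 0.53 (adjusted p = 0.0322), which makes 1 of 5 against 9.95% of all tested genes. The other 4 were not called, and 0 of the 5 were called in WT by edgeR or DESeq2, or at an unadjusted p under 0.05. Among 8 inducers and receptors linked to dual oxidases, Il4ra, a chain of the interleukin 4 and 13 receptors, rose in the libraries labelled CybbKO by 1.30 (adjusted p = 0.00785), and 1 of 8 is close to the 9.95% of all tested genes. Il22ra1, which receives interleukin 22 in epithelium, was called with genotypes averaged (0.88, adjusted p = 0.0295), and in WT 0 of the 8 were called by edgeR or DESeq2, with 2 at an unadjusted p under 0.05. With genotypes averaged 2 of the 8, Il22ra1 and Il4ra, were called higher, against 14.7% of all tested genes. This count was 1 without naive WT replicate 3, and 1 without that library and ligated replicate 2 labelled CybbKO together. Between genotypes in ligated tissue 0 genes of these lists were called by edgeR or DESeq2, and at an unadjusted p under 0.05 stood, among others, Lpo (2.53) and 1 of the 8 dual oxidase inducers and receptors.

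Markers of the cells that carry these enzymes moved with the ligature as well. The summed list of 8 neutrophil genes was at 371 to 843 CPM in naive WT, 818 to 924 CPM in naive libraries labelled CybbKO, 1341 to 3769 CPM in ligated WT and 2491 to 11643 CPM in ligated libraries labelled CybbKO. The 8 monocyte and macrophage genes summed to 55.8 to 69.6, 45.4 to 54.2, 81.2 to 116 and 124 to 156 CPM in the same order. The neutrophil sum was mostly S100a8 and S100a9, at 4551 and 6861 of the 11643 CPM in the highest library. Among the ligated libraries labelled CybbKO it was lowest in replicate 2, as were 5 of the 8 genes, S100a8, S100a9, Csf3r (79.7, 34.5 and 83.5 CPM), Cxcr2 and Mmp9. The other 3, Ly6g (0.235, 1.77 and 0.502 CPM), Retnlg and Mmp8, were highest there. Ly6g had no read in naive WT replicate 1. Of these lists, 1 of 8 neutrophil and 2 of 8 monocyte and macrophage genes rose with the ligature in WT, and all 8 of each did in the libraries labelled CybbKO, against 2.31% and 9.95% of all tested genes. For the fibroblast list it was 2 of 6 in WT and 5 of 6 in the libraries labelled CybbKO, and for the endothelial list 3 of 5 and 4 of 5. Their part in the values of the Nox2 subunits was not tested. Between genotypes in naive tissue, where Cybb was 9.46-fold higher in the libraries labelled CybbKO, the median log2 fold change was 0.64 for the neutrophil list and -0.32 for the monocyte and macrophage list, with 0 genes of either called by edgeR or at an unadjusted p under 0.05. In ligated tissue, where the partners of Cybb differed by 0.70 to 0.95, all 8 genes of each list had higher values in the libraries labelled CybbKO, with medians of 1.33 and 0.55, and 6 and 5 of them stood at an unadjusted p under 0.05 in edgeR, with 0 called.

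**Figure D5:**
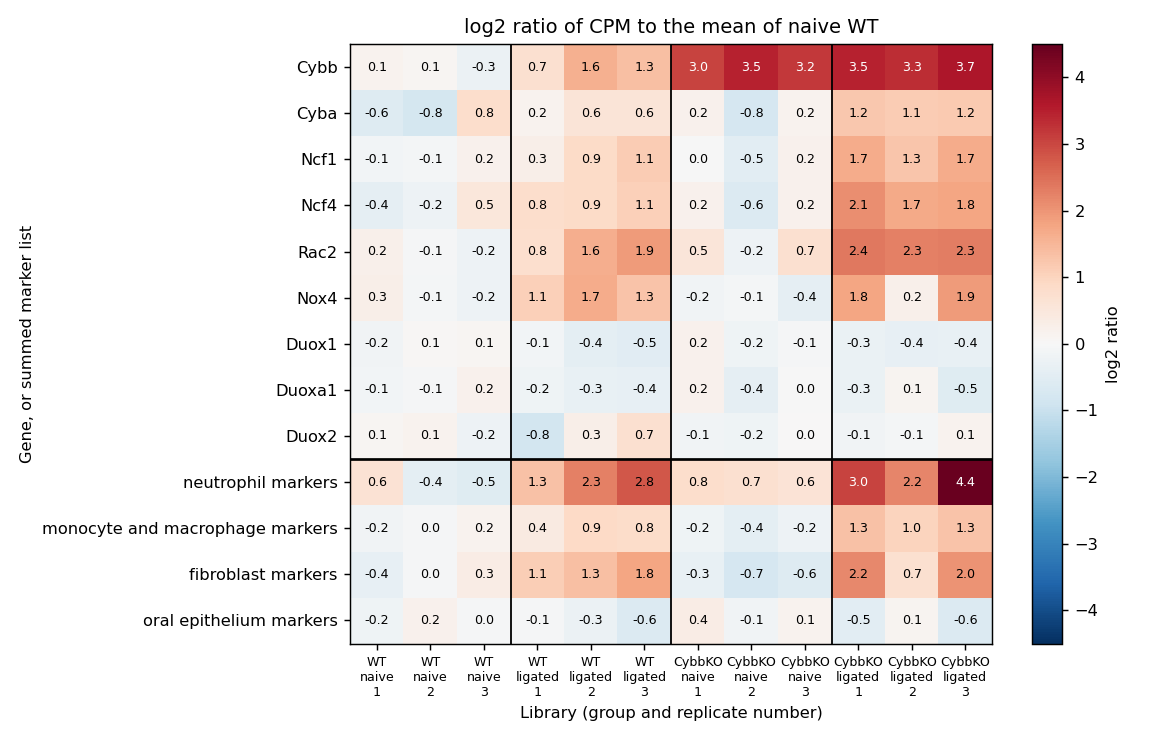
Log2 ratio of CPM to the mean of naive WT for the 9 genes (upper rows) and for 4 summed marker lists (lower rows) in the 12 libraries (columns), on a colour scale from blue (lower) to red (higher). The neutrophil sum is mostly S100a8 and S100a9. Cybb is at 3.0 or above in every library labelled CybbKO, Rac2 is between 2.3 and 2.4 in the ligated libraries labelled CybbKO, and Nox4 (0.2) and the fibroblast list (0.7) are both lowest among the ligated libraries in ligated replicate 2 labelled CybbKO.

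For 4 members the genes nearest in profile were found, by the root mean square difference of log2 CPM over the 12 libraries after centring each gene on its own mean. Themis2 (0.211), Fgr (0.218) and Itgal (0.238), all expressed in leukocytes, were nearest to Rac2, whose own spread was 0.966. Dclk1 (0.186), Adcy7 (0.205) and Hmcn1 (0.224) were nearest to Nox4, whose spread was 0.830. Itgb6 (0.207), Gda (0.208) and Ddit4 (0.215) were nearest to Duox2, whose spread of 0.339 was little larger. Cybb had no close match, since Gzmb at 0.761, Gm4070 at 0.790 and Gm4951 at 0.903 were the nearest against a spread of 1.46. Gzmb was scarce, with group means from 0.0916 CPM in naive WT to 1.61 CPM in ligated tissue labelled CybbKO. Scaling by library size alone kept all 3 nearest genes of Rac2, Nox4 and Duox2 and 2 of the 3 of Cybb.

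On the X chromosome, 30 other genes of the table lie within 1 Mb of Cybb, and 7 of them were tested. Against WT, their log2 fold changes in the libraries labelled CybbKO ran from -0.15 for Lancl3 to 0.39 for Rpgr in naive tissue and from -0.50 for B630019K06Rik to 0.24 for Xk in ligated tissue. The other tested genes, Dynlt3, Srpx and Tspan7, lay between these values. The smallest unadjusted p was 0.0921, and none was called in edgeR. Dynlt3, the nearest tested gene beyond the start of Cybb, was at 389 CPM in naive WT and 395 CPM in naive tissue labelled CybbKO, while Cybb itself went from 5.06 ± 0.758 to 47.9 ± 7.56 CPM (SD, n = 3).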

How the data were processed

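The 12 RNA-seq libraries from gingival tissue, 3 in each of 4 groups, were read as a table of raw counts per gene that the authors deposited (21965 genes). The submitters' processing notes name FastQC 0.10.1 and HTSeq 0.10.0, while the study's methods name featureCounts with reverse strand, so the counter is not settled, and overlapping genes on opposite strands depend on the strand setting. Groups came from the sample labels, and every column of the table was mapped to a sample. Ensembl identifiers were matched to GENCODE M21 (21939 of 21965).

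Counts were fitted with edgeR 4.0.16 in R 4.3.3 (TMM scaling, filterByExpr by group, 15046 genes, quasi-likelihood test, 1 mean per group), with Benjamini-Hochberg adjustment over all tested genes and a threshold of 0.05. The biological coefficient of variation was 0.240. CPM are TMM-scaled, and log2 CPM used a prior count of 2. CPM per kb divided CPM by the exon length of all transcripts. Total counts were 27958819 to 42613423 per library, which sets the precision of scarce genes. On simulated counts for the ligature in WT (15046 genes, 200 changed, 3 simulations), recovery was 45.3% for 2-fold changes and 87.3% for 4-fold changes, with 3.85% false calls. Genes were simulated independently, without differences in tissue composition between libraries. These rates therefore do not measure recovery or false calls where composition differs, as it did here for gland and fibroblast markers.

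Alternatives were DESeq2 1.42.0, other scalings and filters, a robust fit, a replicate block, only the compared libraries, single libraries left out, and 2 libraries left out together (chosen after seeing the data). Libraries with the same replicate number did not deviate together (r from -0.228 to 0.277). All 9 genes were named in each comparison, with the called genes of the pathway lists, the 3 nearest profiles of 4 members, and the tested neighbours of Cybb. The members and lists were chosen with earlier results of these data known. Figures were drawn with matplotlib 3.10.9. Promoter sequences are RefSeq's on GRCm38.p6. Sequences for Ncf4 and Rac2 were not used here. Some genes of the pathway lists are not reported here.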

Additional observations from a re-analysis of the deposited data

How the results depend on the processing

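Of the fold changes of the 9 genes recomputed under the alternatives, 1176 of 1296 kept their direction and their side of the threshold, 32 lost a call, 17 gained a call and 71 changed sign, the last all among differences of at most 0.204 on the log2 scale. Low counts limit Ncf4, Duox2 and Rac2 most, at 32, 56 and 51 reads in their lowest library. Scaling by library size alone moved the median of all genes from -0.03 to 0.08 for the ligature in WT, and the share of calls that were higher from 72.3% to 87.5% in WT, from 76.6% to 86.3% in the libraries labelled CybbKO and from 60.4% to 78.4% averaged over genotypes. The cause of the differences between settings was not tested.

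For the ligature in WT, 2 members were called, against 5 in DESeq2, 1 with the replicate block (Cybb, with Rac2 at 1.49 and an adjusted p of 0.0594), 1 when only the libraries compared were fitted (Nox4, in place of Cybb and Rac2), 5 without the 2 libraries that stand apart, and 0 to 3 with single libraries left out. Over all genes 481 were called, against 1374 in DESeq2, 271 with the replicate block and 1516 without the 2 libraries, and 27 to 900 with single libraries left out. In the libraries labelled CybbKO 1954 genes were called, against 3711 without the 2 libraries and 837 to 2949 with single libraries left out. For the genotype in ligated tissue 1 member was called, against 0 when only the libraries compared were fitted and 0 to 1 with single libraries left out, and over all genes 1 was called, against 15 in DESeq2, 0 when only the libraries compared were fitted and 0 to 2 with single libraries left out. Over all genes, DESeq2 called 2 for the genotype in naive tissue and 10 averaged over treatments, where edgeR called 1 each. The interaction gave 0 to 1 genes with single libraries left out. The block changed no other count of members by over 1.5 times; the replicate numbers did not pair the libraries, with r over 0.1 in 2 of 18 pairs.

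Sign changes between genotypes in ligated tissue were Duox1 at -0.0031 in DESeq2, -0.0030 with DESeq2 size factors, -0.020 with library size only and -0.014 with only the libraries compared, and Duoxa1 at -0.088 without the 2 libraries. In naive tissue, without the 2 libraries, Cyba was at 0.60, Ncf1 at 0.037, Ncf4 at 0.30, Duox1 at 0.054 and Duoxa1 at 0.056, and Duox1 was at 0.0043 with no filter. For the interaction Duox1 was at -0.0014 in DESeq2, -0.00031 with its size factors, -0.010 with library size only and -0.019 without the 2 libraries, where Duox2 was at 0.040 and Duoxa1 at -0.14. Averaged over treatments Nox4 was at 0.095 and Duoxa1 at -0.016 without the 2 libraries, Duoxa1 at -0.0028 with library size only, and Duox1 at -0.0024 in DESeq2, -0.0028 with its size factors, -0.015 with library size only and -5.4e-05 with the replicate block.

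With single libraries left out, sign changes lay within these ranges. The genotype in naive tissue gave -0.35 to 0.59 for Cyba, -0.22 to 0.10 for Ncf1, -0.20 to 0.29 for Ncf4, -0.12 to 0.079 for Duox1 and -0.20 to 0.10 for Duoxa1. The genotype in ligated tissue gave -0.16 to 0.49 for Nox4, -0.074 to 0.13 for Duox1, -0.54 to 0.16 for Duox2 and -0.10 to 0.23 for Duoxa1. The interaction gave -0.073 to 0.13 for Duox1, -0.44 to 0.27 for Duox2 and -0.048 to 0.30 for Duoxa1. Averaged over treatments, the genotype gave -0.19 to 0.14 for Nox4, -0.057 to 0.066 for Duox1, -0.32 to 0.028 for Duox2 and -0.078 to 0.10 for Duoxa1. For the ligature Duox2 gave -0.19 to 0.54 in WT, -0.0085 to 0.15 in the libraries labelled CybbKO and -0.054 to 0.32 averaged.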
